A study of Homo sapiens with 8 samples.

Results

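Metallothioneins are small, cysteine-rich proteins that bind zinc and copper. The 10 genes examined here were 8 metallothionein genes (MT4, MT3, MT2A, MT1E, MT1F, MT1G, MT1M and MT1X), MTF1, which encodes the zinc-sensing transcription factor of the metallothionein genes, and SLC30A1, which encodes the zinc exporter ZnT1. They were measured in SW480, a long-established cell line from a human colorectal cancer, in 8 libraries of ribosomal-RNA-depleted total RNA. The groups were 2 libraries each of cells treated for 24, 48 or 72 h with an siRNA against TCF7L2, and 2 of cells with a non-targeting (negative control) siRNA, which the labels call 0 h, all delivered with a lipid reagent. All 10 genes were among the 18656 gene symbols of the deposited table, and 7 of them had a TPM (a transcript's share of all transcripts, after division by its length) of 1 or more in at least 2 libraries and were tested with 11894 genes in all. MT4 was selected on its large difference in TPM between 48 h and 0 h, so its values against 0 h are given as a description without a test, and the others had been added for comparison.

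Only the 0 h cells had the control siRNA, so silencing of TCF7L2 and the hours since transfection cannot be told apart. The labels speak of 3 replicates given the TCF7L2 siRNA, of which 2 libraries a time were analysed here, and do not call them separate cultures, and the p-values therefore cover only the spread between such libraries, which may be technical. In bulk RNA, fewer cells that express a gene and less of its RNA per cell cannot be told apart. TCF7L2 itself, the gene that the siRNA targets, had a log2 change against 0 h of -0.26 ± 0.11 (SE) after 24 h of siRNA (adjusted p = 0.286). It fell by 0.57 ± 0.11 after 48 h (adjusted p = 0.00653) and by 0.61 ± 0.11 after 72 h, for which the adjusted p was 0.00151 and the change with a pseudocount of 5 was -0.37. The second 72 h library had a listed TPM sum of 352455.7, against 448107.5 to 485601.5 in the other 7, so each library was divided by a scaling factor, which was 0.8184 in that library and 0.9823 to 1.0666 in the others. Levels are TPM as deposited unless called scaled, and log2 changes are differences of log2(scaled TPM + 1). Statements that groups of 2 libraries overlap or do not are descriptions, since how often this holds over all genes was not counted. The epithelial markers EPCAM, CDH1, KRT8, KRT18, KRT19, KRT20, VIL1, CDH17 and CDX2 summed to between 3151.65 and 4233.47 TPM, most of it from KRT18, KRT8, KRT19 and EPCAM. The intestinal markers among them ranged from 128.69 to 192.85 TPM (VIL1), from 4.42 to 9.56 TPM (CDX2), from 3.04 to 10.15 TPM (CDH17) and from 0.52 to 2.98 TPM (KRT20). The 10 leukocyte, endothelial and fibroblast markers summed to between 2.06 and 7.44 TPM.

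Zinc that enters a cell is bound by metallothioneins, and free zinc activates MTF1, which binds metal response elements in the promoters of metallothionein genes and of SLC30A1. MT1 and MT2 genes are expressed in many tissues and are induced by metals, glucocorticoids and oxidative stress. MT3 is best known from the brain and MT4 from stratified squamous epithelium. Intestinal epithelium takes up dietary zinc and uses metallothioneins as a zinc buffer.

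The genes differ in how many copies of the metal response element core their promoters hold. RefSeq (GRCh38.p14) promoter sequences were found for 5 of the 10 genes, namely MT4, MT2A, MT1X, MTF1 and SLC30A1, and the 250 bases before the RefSeq start were searched on either strand for TGCACNC and TGCGCNC. Those of MT4 (chr16:56564823-56565072, plus strand), MT2A (chr16:56608334-56608583, plus strand), MT1X (chr16:56682220-56682469, plus strand) and SLC30A1 (chr1:211579162-211579411, minus strand) are shown 5′ to 3′ because these genes stand for the metallothionein that differed most, 2 abundant ones and the zinc exporter, with matches in capitals.
MT4: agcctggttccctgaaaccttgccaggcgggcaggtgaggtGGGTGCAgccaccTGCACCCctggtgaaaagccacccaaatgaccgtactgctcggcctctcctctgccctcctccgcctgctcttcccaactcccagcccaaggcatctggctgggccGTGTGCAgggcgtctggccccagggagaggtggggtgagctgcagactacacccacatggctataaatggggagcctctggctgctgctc
MT2A: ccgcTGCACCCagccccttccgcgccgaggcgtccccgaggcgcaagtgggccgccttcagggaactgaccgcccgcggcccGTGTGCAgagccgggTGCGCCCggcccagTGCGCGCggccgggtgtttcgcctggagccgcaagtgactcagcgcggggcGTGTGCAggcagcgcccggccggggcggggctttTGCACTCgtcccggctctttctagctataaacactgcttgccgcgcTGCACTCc
MT1X: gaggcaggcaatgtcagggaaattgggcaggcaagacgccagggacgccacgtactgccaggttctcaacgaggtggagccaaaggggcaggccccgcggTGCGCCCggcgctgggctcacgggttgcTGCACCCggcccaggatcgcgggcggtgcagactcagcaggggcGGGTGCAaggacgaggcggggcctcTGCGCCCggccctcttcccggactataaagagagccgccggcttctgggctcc
SLC30A1: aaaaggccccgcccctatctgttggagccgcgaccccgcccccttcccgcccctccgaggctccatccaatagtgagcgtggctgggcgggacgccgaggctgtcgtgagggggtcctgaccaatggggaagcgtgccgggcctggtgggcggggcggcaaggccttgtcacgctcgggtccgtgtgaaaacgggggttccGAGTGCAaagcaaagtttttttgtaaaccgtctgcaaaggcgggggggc
The MT2A window held 7 matches, that of MT1X 4, that of MT4 3 and that of SLC30A1 1, and the 250 bases before MTF1 held 0. No 2 matches overlapped. RefSeq and GENCODE 29 place the starts differently. By the GENCODE gene positions, the MT4 window runs past the gene's first base at 56565049 and that of MT1X past 56682424. The MT2A window lies inside the gene, which starts at 56608199. On the minus strand, the MTF1 window runs past that gene's first base at 37859620. The SLC30A1 window stops at 211579162, short of that gene's first base at 211578742, so the bases between were not searched. Of 35116 promoter windows of this length, 24.8% held 1 or more matches, 1.58% held 3 or more, 0.37% held 4 or more and 0.0313% held 7 or more. The windows were rich in G and C, which made up 64.4% of the MT4 window, 73.2% of that of MT2A, 70.0% of that of MT1X and 66.4% of that of SLC30A1. TCF/LEF proteins bind words such as ATCAAAG and TTCAAAG, and these were found on either strand in 0 of the 5 windows and in 5.9% of all 35116. A match is a string of letters and not a measured binding site, and a window without one says nothing of binding elsewhere.

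MT4 was the metallothionein with the largest difference from the control. It had 1.89 and 1.56 TPM at 0 h, 4.80 and 3.42 TPM at 24 h, 10.7 and 15.58 TPM at 48 h, and 13.46 and 8.38 TPM at 72 h. Each siRNA library lay above the 2 control libraries, and the 48 and 72 h libraries lay above those of 24 h and overlapped each other. The log2 difference from 0 h was 0.96 ± 0.18 at 24 h, 2.33 ± 0.18 at 48 h and 2.25 ± 0.18 at 72 h, and by the size of this difference MT4 ranked 7, 2 and 33 among the 11894 genes. These comparisons share the 0 h libraries in which the gene was picked, so no test is given for them. The choice did not rest on the difference between 72 h and 24 h. Earlier results of these data were known, however, and the fit took its error from all libraries. The test of that difference is therefore not fully independent of the choice. Between 72 h and 24 h MT4 rose by 1.29 ± 0.18 (adjusted p = 0.000315). Over the alternatives to the processing this change ranged from 0.85, with a pseudocount of 5, to 1.48, without the first 24 h library, and the highest adjusted p was 0.00372. MT4 (GRCh38 chromosome 16, 56565049 to 56568957, plus strand) has 1 annotated transcript of 294 bases, and 0 of its 245 words of 50 bases occurred in a transcript of another gene. TPM is divided by transcript length, so a given number of reads weighs more in a transcript this short, and its part in the MT4 values was not tested. The annotated gene overlaps no other, and its nearest neighbours lie 44765 bases before it (BBS2, on the minus strand) and 20116 bases after it (MT3).

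MT3, the brain metallothionein, differed with time in another way. It had 4.65 and 4.42 TPM at 0 h, 3.90 and 3.32 TPM at 24 h, 8.13 and 8.64 TPM at 48 h, and 5.97 and 5.49 TPM at 72 h. The 4 groups did not overlap, with 24 h lowest and 48 h highest, and how often this holds over all genes was not counted. At 48 h MT3 rose by 0.75 ± 0.11 against 0 h (adjusted p = 0.00139). At 24 h its log2 change against 0 h was -0.19 ± 0.11 (adjusted p = 0.418), and between 48 h and 24 h it rose by 0.94 ± 0.11 (adjusted p = 0.000858). At 72 h MT3 rose by 0.44 ± 0.11 against 0 h (adjusted p = 0.00591), and on TPM as deposited the change was 0.28 ± 0.16 (adjusted p = 0.161). It also rose by 0.63 ± 0.11 between 72 h and 24 h (adjusted p = 0.000855). Between 72 h and 48 h it fell by 0.31 ± 0.11 (adjusted p = 0.0415), which did not pass in 9 of 19 alternatives. These included leaving out either 0 h library (adjusted p = 0.0552 and 0.0548), either 48 h library (0.0939 and 0.172) or the first 72 h library (0.184). With a pseudocount of 5 the 48 h change against 0 h was 0.48, the 72 h change 0.27, that between 72 h and 24 h 0.37 and that between 48 h and 24 h 0.58.

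MT2A, the most abundant of the 8 metallothioneins in every library, changed little. It had 40.42 and 45.9 TPM at 0 h, 42.98 and 39.43 TPM at 24 h, 47.13 and 54.19 TPM at 48 h, and 49.74 and 43.78 TPM at 72 h. On the deposited scale the 48 h libraries lay above those of 0 and 24 h and the 72 h libraries above those of 24 h, while 72 h overlapped 0 and 48 h. After scaling, the 72 h libraries had 47.5 and 53.5, against 38.3 and 43.2 in the 0 h libraries. On that scale MT2A rose by 0.30 ± 0.09 at 72 h against 0 h (adjusted p = 0.0155) and by 0.27 ± 0.09 against 24 h (adjusted p = 0.0267). The 0 h call was lost on TPM as deposited (0.11 ± 0.16, adjusted p = 0.595), and when the first 0 h or the second 72 h library was left out (adjusted p = 0.123 and 0.102). The 24 h call was lost on TPM as deposited (0.18 ± 0.16, adjusted p = 0.417), without the second 24 h library (0.143), without the second 72 h library (0.16), without the filter on low values (0.0629) and without a mean-variance trend (0.0556). At 48 h against 0 h the change was 0.22 ± 0.09 (adjusted p = 0.0923), and at 24 h it was 0.03 ± 0.09 (adjusted p = 0.9), which was -0.06 on TPM as deposited.

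MT1E moved in the opposite direction to MT4. It had 27.96 and 28.26 TPM at 0 h, 20.99 and 19.91 TPM at 24 h, 21.34 and 18.91 TPM at 48 h, and 13.53 and 12.89 TPM at 72 h. Every siRNA library lay below the control libraries, and the 72 h libraries lay below all others. MT1E fell by 0.47 ± 0.10 at 48 h (adjusted p = 0.00794) and by 0.85 ± 0.10 at 72 h (adjusted p = 7.3e-05) against 0 h. Its 24 h change of -0.35 ± 0.10 did not pass (adjusted p = 0.115), except without the first 72 h library (adjusted p = 0.0492). It also fell between 72 h and 24 h, by 0.50 ± 0.10 (adjusted p = 0.00182), and between 72 h and 48 h, by 0.39 ± 0.10 (adjusted p = 0.0108). The 48 h call did not hold when the second 48 h library was left out (-0.38, adjusted p = 0.0641), nor that between 72 h and 48 h without the first 48 h library (0.0816) or the first 72 h library (-0.26, adjusted p = 0.0509). The 72 h call against 0 h held in all 19 alternatives, with changes of -1.03 to -0.71.

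MT1X, another widely expressed member, had 25.48 and 32.52 TPM at 0 h, 26.17 and 27.35 TPM at 24 h, 26.41 and 28.79 TPM at 48 h, and 23.69 and 18.8 TPM at 72 h. The 72 h libraries lay below all others, and the other groups overlapped. Relative to 0 h, MT1X had log2 changes of -0.01 ± 0.10, -0.06 ± 0.10 and -0.24 ± 0.10 after 24, 48 and 72 h, with adjusted p-values of 0.98, 0.686 and 0.0625. The 72 h change passed on TPM as deposited (-0.43 ± 0.16, adjusted p = 0.0206), with the replicate number as a block (adjusted p = 0.0336) and without the first 0 h library (-0.41, adjusted p = 0.00482), while without the second 0 h library it was -0.08 (adjusted p = 0.47). The change of MT1X between 72 h and 24 h was -0.24 ± 0.10 (adjusted p = 0.0719), and it passed without the first or second 0 h library (0.0197 and 0.0203), with the compared groups alone (0.0277) and with the replicate number as a block (0.0398). MT1X overlaps the transcript AC026461.1 on the same strand, and 18.3% of its 1867 words of 50 bases occurred in another gene, so its values are uncertain. That share was 7.1% for MT1E, 3.02% for MT2A and 0% for MT3 and MT4.

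The 3 remaining metallothioneins were near or at 0 and were not tested. MT1G was listed at between 0 and 0.75 TPM, MT1F at between 0 and 0.33 TPM, and MT1M at between 0 and 0.07 TPM with 6 of 8 libraries at 0. Outside the 10 genes, MT1A was listed at between 0 and 0.43 TPM, and MT1B, MT1H and MT1HL1 were listed at 0 in every library.

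**Figure D1:**
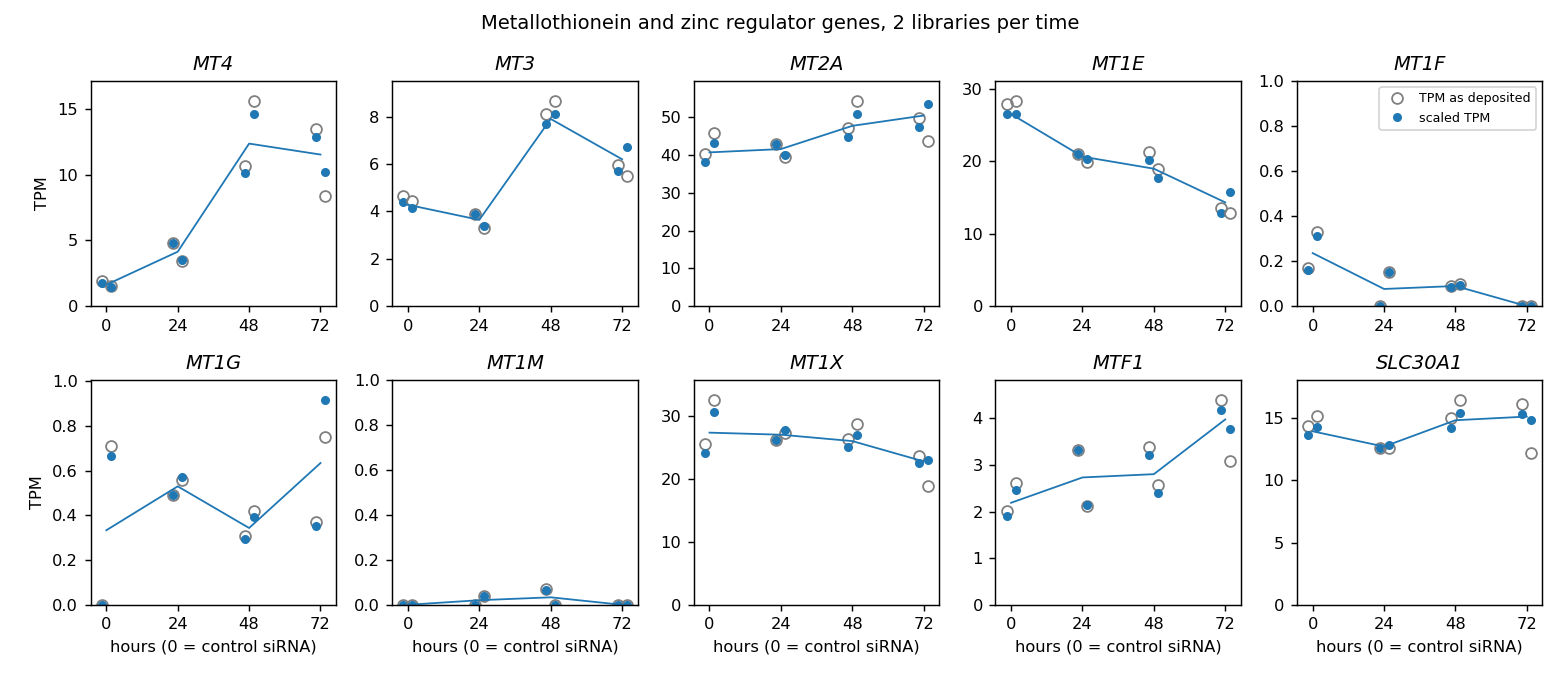
TPM of each of the 10 genes (vertical axis, from 0) against hours of siRNA (horizontal axis, 0 being the control siRNA). Open circles are TPM as deposited, filled circles are scaled TPM, 1 of each per library, and lines join the means of scaled TPM. MT4 reached 15.58 TPM as deposited in a 48 h library, MT1E was lowest at 72 h with 12.89 and 13.53 TPM, and MT1F, MT1G and MT1M stayed below 1 TPM.

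Zinc is sensed by MTF1 and exported by ZnT1. MTF1 (chromosome 1, 37809567 to 37859620) was expressed at a low level, with 2.02 and 2.62 TPM at 0 h, 3.31 and 2.11 TPM at 24 h, 3.38 and 2.56 TPM at 48 h, and 4.39 and 3.08 TPM at 72 h. The 24 and 48 h libraries overlapped those of the control, and the 72 h libraries lay above those of the control. MTF1 rose by 0.65 ± 0.17 at 72 h against 0 h (adjusted p = 0.0101), and MTF1 no longer passed when the first 0 h library was left out (0.52, adjusted p = 0.0742) or the first of 72 h (0.58, adjusted p = 0.0510). With a pseudocount of 5 the change was 0.32. MTF1 differed from 0 h by 0.21 ± 0.17 and 0.25 ± 0.17 after 24 and 48 h (adjusted p = 0.581 and 0.312), and the change was 0.43 ± 0.17 between 72 h and 24 h (adjusted p = 0.0589). That last change passed without the first 24 h library (0.66, adjusted p = 0.0178), with libraries brought to the same sum (0.0448) and with a pseudocount of 5 (0.0472).

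SLC30A1 had 14.36 and 15.16 TPM at 0 h, 12.55 and 12.61 TPM at 24 h, 15.01 and 16.43 TPM at 48 h, and 16.09 and 12.17 TPM at 72 h. On the deposited scale the 72 h libraries spanned all other groups except for the higher 48 h library. Relative to 0 h, SLC30A1 had log2 changes of -0.12 ± 0.07, 0.08 ± 0.07 and 0.11 ± 0.07 after 24, 48 and 72 h, with adjusted p-values of 0.436, 0.433 and 0.225. The last change was -0.07 ± 0.16 on TPM as deposited. It rose by 0.23 ± 0.07 between 72 h and 24 h (adjusted p = 0.0221). This call was lost on TPM as deposited (0.14 ± 0.16, adjusted p = 0.52), without the first or second 24 h library (0.0931 and 0.0659) and without the first 72 h library (0.0806).

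**Figure D2:**
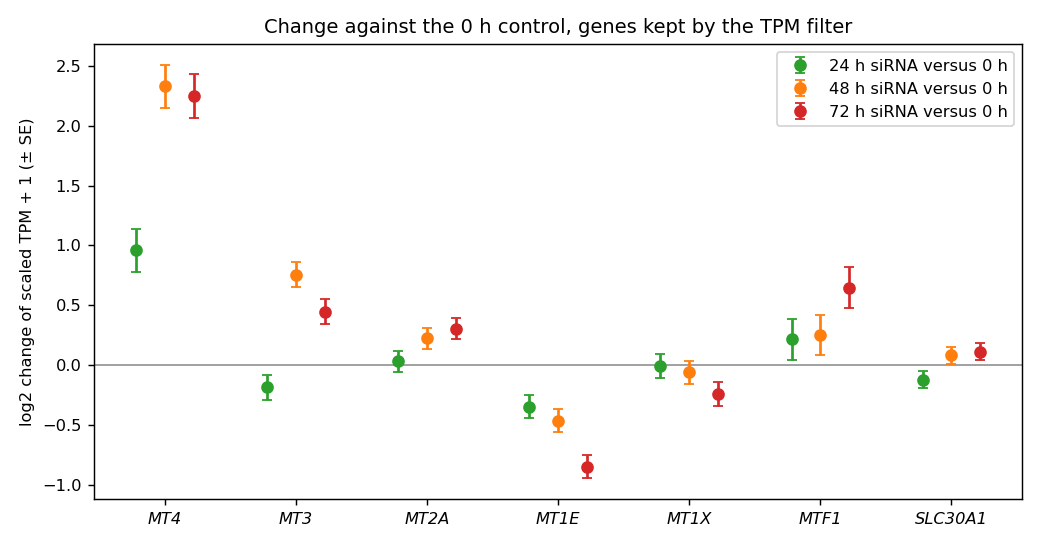
Log2 change of scaled TPM + 1 against 0 h (vertical axis, with SE bars) for the 7 genes that passed the TPM filter, at 24, 48 and 72 h. MT4 lies at 0.96, 2.33 and 2.25 and is a description, since it was picked for this difference, while MT1E lies at -0.35, -0.47 and -0.85.

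Leaving MT4 out, limma called 0 of the 6 other tested genes at 24 h against 0 h, where 1.04% of all genes were called, and 1 of the 6 had an unadjusted p under 0.05. At 48 h it called 1 higher (MT3) and 1 lower (MT1E), where 23.4% of all genes were called, 11.4% higher and 12% lower. At 72 h it called 3 higher (MT3, MT2A and MTF1) and 1 lower (MT1E), where 52.2% were called, 24.2% higher and 28% lower. Between 72 h and 24 h, with MT4 included, 4 of 7 were higher (MT4, MT3, MT2A and SLC30A1) and 1 was lower (MT1E), where 50.3% of all genes were called, 23.1% higher and 27.1% lower. Of the 6 without MT4, 1 was higher between 48 h and 24 h (MT3), where 14.4% of all genes were called and 7.22% were higher. Between 72 h and 48 h 2 of the 6 were lower (MT3 and MT1E), where 40.1% of all genes were called and 20.8% were lower. The median log2 change of the 6 genes was -0.07, 0.15 and 0.21 at 24, 48 and 72 h, beside 0.00, -0.02 and -0.02 over all genes. On TPM as deposited the median over all genes was -0.09, -0.02 and -0.19, and 1 of the 6 was called higher and 2 lower at 72 h.

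The summed level of the 8 metallothioneins was 100.57 and 113.7 TPM at 0 h, 99.33 and 94.18 TPM at 24 h, 114.18 and 126.63 TPM at 48 h, and 106.76 and 90.09 TPM at 72 h. The 72 h libraries overlapped those of 0 h. MT1E made up 12.7 and 14.3% of the sum at 72 h, against 27.8 and 24.9% at 0 h. MT4 made up 12.6 and 9.30% of the sum at 72 h, against 1.88 and 1.37% at 0 h. MT2A made up 46.6 and 48.6% at 72 h, against 40.2 and 40.4% at 0 h. MT1X made up 22.2 and 20.9% at 72 h, against 25.3 and 28.6% at 0 h. MT3 made up 5.59 and 6.09% at 72 h, against 4.62 and 3.89% at 0 h. For MT1E, MT2A, MT1X and MT3 the shares at 72 h did not overlap those at 0 h. Shares of the same sum depend on each other, and how often such groups fail to overlap over all genes was not counted. The shares of MT4 are a description, since it was selected on its difference from the 0 h libraries.

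**Figure D3:**
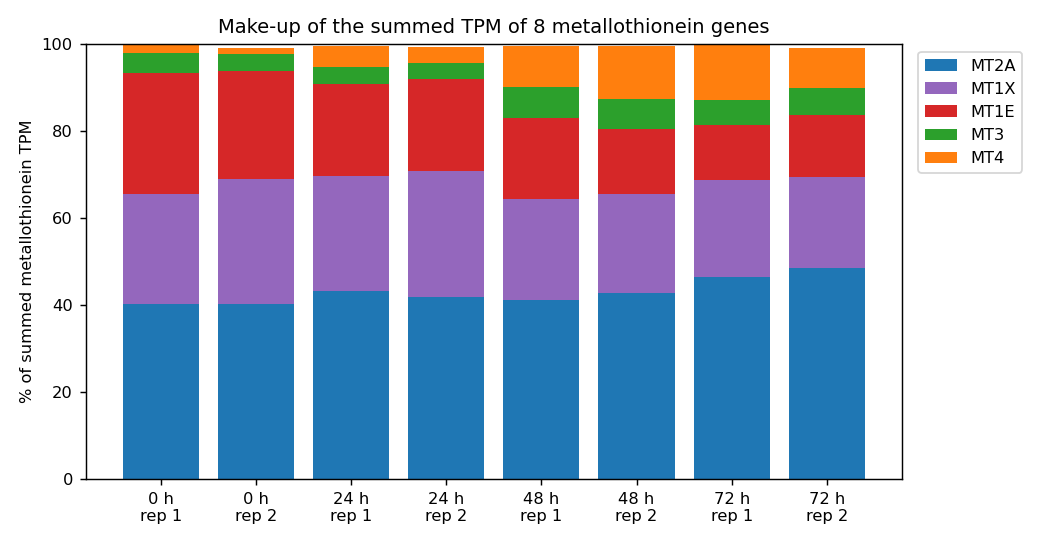
Share of the summed TPM of the 8 metallothionein genes (vertical axis, percent) that each of the 5 expressed ones took in each library, with the hours and replicate on the horizontal axis. MT2A holds 40.2 to 48.6% throughout, MT1E narrows to 12.7 and 14.3% at 72 h, and MT4 widens to 12.6 and 9.30%.

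The order of the levels changed accordingly. At 0 h it was MT2A, MT1X, MT1E, SLC30A1, MT3, MTF1 and MT4, and of these neighbours only MT1X and MT1E overlapped. At 24 h the order was MT2A, MT1X, MT1E, SLC30A1, MT4, MT3 and MTF1, with an overlap between MT4 and MT3 only. At 48 h it was MT2A, MT1X, MT1E, SLC30A1, MT4, MT3 and MTF1, with an overlap between SLC30A1 and MT4 only. At 72 h it was MT2A, MT1X, SLC30A1, MT1E, MT4, MT3 and MTF1, where SLC30A1 overlapped MT1E and MT1E overlapped MT4.

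The 5 genes whose scaled log2 levels followed MT4 most closely over the 8 libraries were MTM1, which encodes the lipid phosphatase myotubularin (Pearson r = 0.990), the folate receptor gene FOLR1 (0.988), MPZL3 (0.987), the ubiquitin ligase gene PELI1 (0.985) and RAB11A, a GTPase gene of recycling endosomes (0.981). FOLR1 had 36.79 and 34.17 TPM at 0 h, 43.29 and 37.92 TPM at 24 h, 63.48 and 65.95 TPM at 48 h, and 60.46 and 47.32 TPM at 72 h. With MT4, 68 of 11893 genes had an r above 0.95. For MT2A the closest 5 were ZNF721 (0.976), TEX2 (0.971), TMEM25 (0.970), WNT6 (0.964) and GPR107 (0.962), and 6 genes had an r above 0.95. These values describe 8 libraries that share the same times, among them those on which MT4 was selected. Pearson r takes no account of the size of a change. PELI1, for example, had 28.85 and 28.95 TPM at 0 h and 32.67 and 34.87 TPM at 48 h. Between MT4 and the other expressed metallothioneins r was 0.80 for MT3, 0.80 for MT2A, -0.53 for MT1X and -0.86 for MT1E.

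The 8 metallothionein genes examined lie in 1 cluster on the long arm of chromosome 16. In it MT3 starts 24.0 kb, MT2A 43.2 kb, MT1E 60.4 kb and MT1X 117.4 kb after MT4 (GENCODE 29, GRCh38). MT4, MT3 and MT2A, the first 3 in this order, had log2 changes of 2.25, 0.44 and 0.30 at 72 h against 0 h, and MT1E and MT1X had -0.85 and -0.24. Of these, MT4 was selected on its difference from 0 h and MT1X did not pass limma's test (adjusted p = 0.0625). MT3 and MT2A did not pass on TPM as deposited (adjusted p = 0.161 and 0.595). A link between position and change was not tested. Of 7 genes beside the cluster, 5 were expressed, and at 72 h 1 of these rose and 4 fell (0 and 4 on TPM as deposited), where 24.2% of all genes were called higher and 28% lower. Before the cluster, the ciliary gene BBS2 rose by 0.40 ± 0.09 (adjusted p = 0.00444), a call that was lost on TPM as deposited (0.21, adjusted p = 0.291). OGFOD1, a ribosomal protein hydroxylase gene, fell by 0.65 ± 0.07 and NUDT21, a gene of messenger RNA 3′ end processing, by 0.35 ± 0.07. After the cluster, the stress gene HERPUD1 fell by 0.43 ± 0.07 and the nuclear pore gene NUP93 by 0.24 ± 0.07. NUP93 was not called when the second library of 0 h or of 72 h was left out (adjusted p = 0.141 and 0.106), nor after quantile normalization (0.0895), and without the second 72 h library the change of BBS2 was 0.25. OGFOD1 overlaps NUDT21 and BBS2 on the opposite strand, and how strand was counted is not stated, so these 3 are uncertain. SLC12A3 and CETP were at or below 0.04 TPM.

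**Figure D4:**
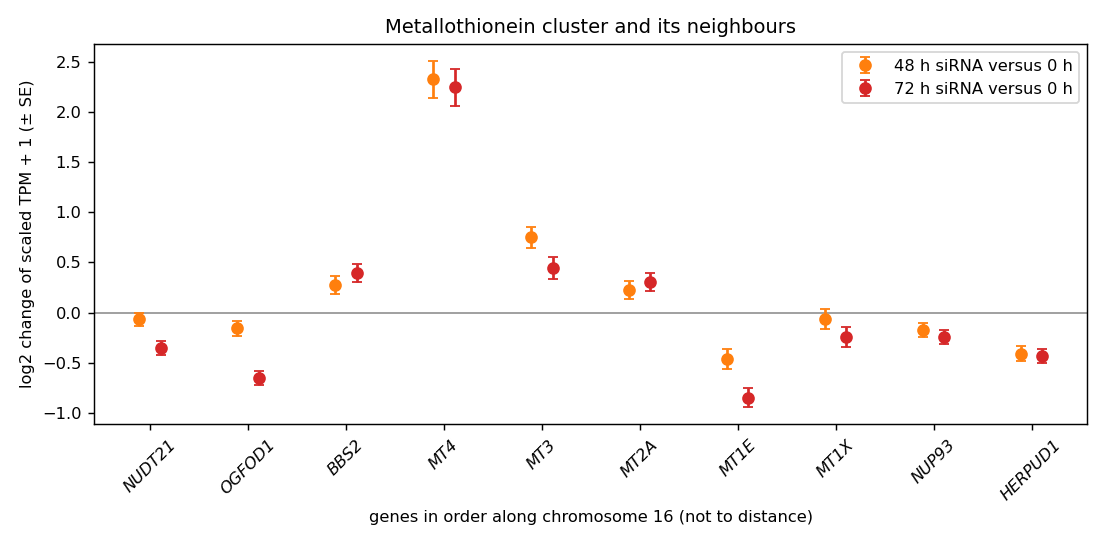
Log2 change of scaled TPM + 1 against 0 h (vertical axis, with SE bars) at 48 and 72 h for the expressed genes of the metallothionein cluster and its neighbours, in their order along chromosome 16 but not to distance. MT4 stands at 2.33 and 2.25, while BBS2 before it and MT3 after it are at 0.40 and 0.44 at 72 h.

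Among the zinc transporter genes, 3 of 8 ZnT genes, SLC30A1 being 1 of the 8, and 7 of 12 ZIP genes were called at 72 h. Over all genes 52.2% were called (24.2% higher and 28% lower). ZnT proteins carry zinc out of the cytosol. At 72 h against 0 h, 2 of 8 expressed ZnT genes were called higher and 1 lower (1 and 2 on TPM as deposited). SLC30A10, whose product is best known as a manganese exporter, had 2.94 and 2.22 TPM at 72 h, against 0.91 and 1.06 TPM at 0 h, with a fitted change of 0.96 ± 0.11 (0.39 with a pseudocount of 5 and 1.48 with one of 0.1). SLC30A10 reached 1 TPM in 1 of the 4 libraries of 0 and 24 h and in all 4 of 48 and 72 h. It thus passed the filter through the groups where it is high. Its call is included in the 2 called higher but is no support for a rise. SLC30A6, a gene of the secretory pathway, fell by 0.39 ± 0.08 (adjusted p = 0.00282). SLC30A3 rose by 0.51 ± 0.17 (adjusted p = 0.0284), a call that was lost on TPM as deposited (0.0798) and without the first or second 0 h library (0.14 and 0.0522) or the second 72 h library (0.25, adjusted p = 0.211). SLC30A5 had a change of -0.22 ± 0.10 (adjusted p = 0.0944), which passed on TPM as deposited (-0.41, adjusted p = 0.0285), with a replicate block (0.038) and without the first or second 48 h library (0.0456 and 0.0454).

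ZIP proteins carry zinc into the cytosol, and 3 of their 12 expressed genes rose and 4 fell at 72 h (2 and 4 on TPM as deposited). SLC39A14, a plasma membrane importer of zinc, iron and manganese, had 62.07 and 61.63 TPM at 0 h, 43.59 and 45.86 TPM at 24 h, 37.61 and 39.27 TPM at 48 h, and 19.22 and 14.51 TPM at 72 h. SLC39A14 fell by 0.36 ± 0.06, by 0.67 ± 0.06 and by 1.64 ± 0.06 after 24, 48 and 72 h, with adjusted p-values of 0.0255, 0.000107 and 7.72e-08. The 24 h change did not pass in 9 of 19 alternatives, which included TPM as deposited (adjusted p = 0.283) and leaving out either 0 h library (0.179 and 0.171), either 24 h library (0.164 and 0.102) or either 48 h library (0.0602 and 0.0593). SLC39A9, a gene of the Golgi, had 15.85 and 12.5 TPM at 72 h, against 36.71 and 42.34 TPM at 0 h, and fell by 1.24 ± 0.07 (adjusted p = 1.2e-06). SLC39A3 fell by 0.70 ± 0.09 (adjusted p = 0.000207), and SLC39A10 rose by 0.58 ± 0.06 (adjusted p = 4.14e-05). SLC39A4, the dietary zinc importer of the intestine, was singled out after its values were seen, so they are given as a description without a test. It had 17.97 and 16.21 TPM at 72 h, against 10.95 and 11.84 TPM at 0 h, a log2 difference of 0.73 ± 0.11. It is included in the 3 ZIP genes counted as risen. At 24 h 0 ZnT genes were called, with 1 at an unadjusted p under 0.05. SLC39A14 was the only ZIP gene called, and 4 of the 12, SLC39A14 among them, had an unadjusted p under 0.05. At that time 1.04% of all genes were called.

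**Figure D5:**
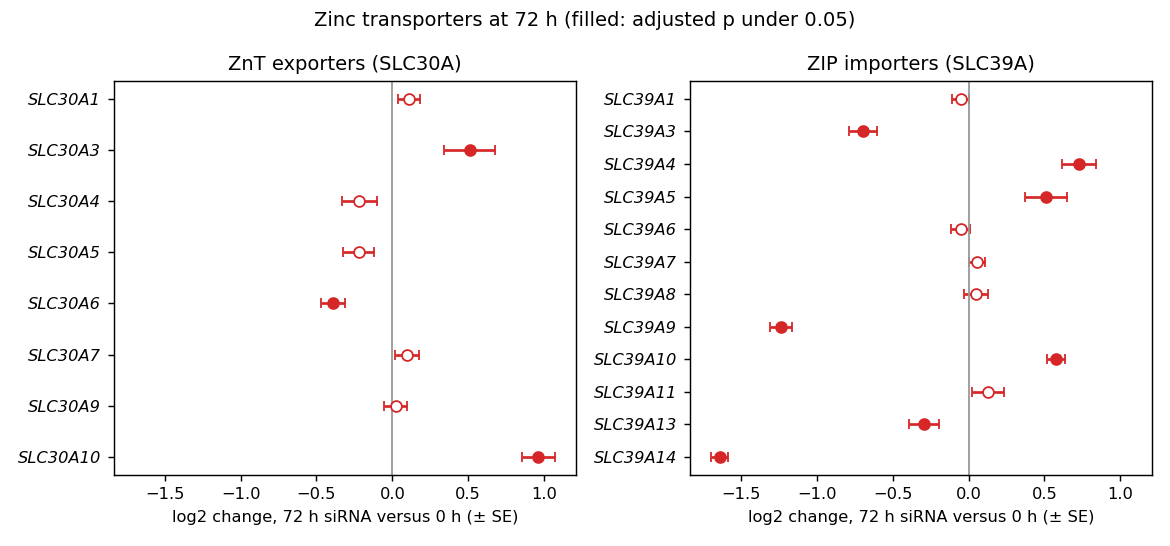
Log2 change of scaled TPM + 1 at 72 h against 0 h (horizontal axis, with SE bars) for the expressed ZnT genes (left) and ZIP genes (right), filled where the adjusted p was under 0.05. SLC39A14 and SLC39A9 lie at -1.64 and -1.24, and SLC30A10 and SLC39A4 at 0.96 and 0.73. SLC30A10 passed the TPM filter through its 48 and 72 h libraries, and SLC39A4 was singled out after its values were seen.

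Metallothionein genes also respond to copper, oxidative stress, heat shock and glucocorticoids, and lists of these were compared at 72 h with 0 h. Of 9 copper-handling genes 2 rose and 1 fell (0 and 1 on TPM as deposited), where 24.2% of all genes were called higher and 28% lower. The copper importer gene SLC31A1 fell by 0.60 ± 0.07 (adjusted p = 0.000114), and CCS, the copper chaperone of superoxide dismutase, rose by 0.41 ± 0.06 (adjusted p = 0.00039; 0.23 and adjusted p = 0.254 on TPM as deposited). COX17 rose by 0.26 ± 0.07 (adjusted p = 0.0163), lost on TPM as deposited (0.07, adjusted p = 0.767), without the first 0 h library (0.17, adjusted p = 0.141) and without the first or second 72 h library (0.0512 and 0.0517). ATOX1 had a change of 0.11 ± 0.08 (adjusted p = 0.273), and of -0.08 on TPM as deposited, and was called after quantile normalization (0.20, adjusted p = 0.0474).

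Of 15 genes of the oxidative stress factor NRF2, 1 was called higher and 8 lower (0 and 8 on TPM as deposited). Over all genes 24.2% were called higher and 28% lower. The median log2 change of the 15 NRF2 genes was -0.22, beside -0.02 over all genes. Without the second 0 h library 5 fell. The 1 called higher was the heme oxygenase gene HMOX1, named after its value was seen. It had 1.08 and 0.83 TPM at 72 h, against 0.63 and 0.64 TPM at 0 h, and passed the filter only through 1 library each of 48 and 72 h, so that its call is no support for a rise, and in 14 of 19 alternatives none was called higher. NFE2L2, which encodes NRF2, fell by 0.70 ± 0.06 (adjusted p = 1.87e-05), the sulfiredoxin gene SRXN1 by 0.67 ± 0.06 (adjusted p = 2.13e-05), GCLM, a subunit of glutamate-cysteine ligase, by 0.74 ± 0.12 (adjusted p = 0.000706; -0.45 with a pseudocount of 5) and the peroxiredoxin gene PRDX1 by 0.32 ± 0.07 (adjusted p = 0.00477; -0.21 without the second 72 h library). Of 10 expressed heat shock genes 7 rose and 2 fell (3 and 2 on TPM as deposited), beside the same 24.2% and 28% of all genes. The small heat shock protein gene HSPB1 had 175.76 and 162.86 TPM at 72 h, against 97.62 and 85.18 TPM at 0 h, and rose by 1.08 ± 0.09 (adjusted p = 1.33e-05). The cochaperone gene BAG3 rose by 0.75 ± 0.10 (adjusted p = 0.000365; 0.46 with a pseudocount of 5), HSPA8 by 0.32 ± 0.04 (adjusted p = 0.000157) and HSPA1B, 1 of 2 near-identical genes and therefore uncertain, by 0.50 ± 0.07 (adjusted p = 0.00018). On TPM as deposited HSPA8 (0.13, adjusted p = 0.585) and HSPA1B (0.32, adjusted p = 0.1) were not called.

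Of 7 expressed glucocorticoid response genes 3 rose and 1 fell (1 and 2 on TPM as deposited, and 3 lower without the second 72 h library). Among all genes 24.2% were called higher and 28% lower. The kinase gene SGK1 rose by 1.35 ± 0.16 (adjusted p = 0.000115; 0.69 with a pseudocount of 5) and KLF9, a transcription factor gene, fell by 0.66 ± 0.11 (adjusted p = 0.000771; -0.29 with a pseudocount of 5). The calls of the circadian gene PER1 (0.42 ± 0.14, adjusted p = 0.0296) and of TSC22D3 (0.24 ± 0.09, adjusted p = 0.0413) were lost on TPM as deposited (0.26, adjusted p = 0.205 and 0.06, adjusted p = 0.78). Leaving out the second 0 h library (0.174 for PER1 and 0.149 for TSC22D3), the first 72 h library (0.0915 and 0.0857) or the second 72 h library (0.0764 and 0.122) also ended these calls, and TSC22D3 was not called without the first 0 h library (0.109) or the second 24 h library (0.0502). Against the 52.2% of all genes called at 72 h in either direction, 3 of 9 copper, 9 of 15 NRF2, 9 of 10 heat shock and 4 of 7 glucocorticoid genes were called. The NRF2 count includes HMOX1, whose call is no support for a rise.

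MT4 is known from stratified squamous epithelium, so markers of that tissue were looked at beside it. Of the 9 such genes measured, 2 were expressed. KRT5 had 407.91 and 408.96 TPM at 48 h, against 284.46 and 280.54 TPM at 0 h, and rose by 0.53 ± 0.04 (adjusted p = 7.59e-05). At 72 h KRT5 had a change of 0.17 ± 0.04 (adjusted p = 0.00874) that was -0.03 on TPM as deposited and it did not pass when the second 0 h library was left out (adjusted p = 0.0743) or without a mean-variance trend (0.053). KRT10 fell by 0.45 ± 0.08 at 72 h (adjusted p = 0.00146). KRT1, KRT14, IVL, SPRR1B, SPRR3 and TP63, which mark the basal or the differentiating layers, were at or below 0.21 TPM in every library and FLG at or below 0.77 TPM. Of the 9 epithelial markers 7 were called higher and 1 lower at 72 h (3 and 1 on TPM as deposited), where 24.2% of all genes were called higher and 28% lower. Of the intestinal ones, CDX2 fell by 0.42 ± 0.10 (adjusted p = 0.00461), and VIL1 had a change of -0.05 ± 0.06 (adjusted p = 0.505). CDH17 rose by 1.41 ± 0.10 (adjusted p = 3.93e-06; 0.86 with a pseudocount of 5). KRT20 had 2.98 and 2.59 TPM at 72 h, against 0.52 and 0.62 TPM at 0 h. It was above 1 TPM only in the 48 and 72 h libraries, through which it passed the filter. Its call is included in the 7 called higher but is no support for a rise. Of the general epithelial markers, KRT19 rose by 0.81 ± 0.04 (adjusted p = 8.93e-07) and KRT8 by 0.39 ± 0.04 (adjusted p = 2.99e-05; 0.19 and adjusted p = 0.399 on TPM as deposited). Of the leukocyte, endothelial and fibroblast markers 2 of 10 passed the filter, both of them collagen genes. COL3A1 had 2.63 and 1.88 TPM at 72 h, against 0.01 and 0.02 TPM at 0 h. It reached 1 TPM only in the 2 libraries of 72 h and was not fitted when either was left out, so that no test is given for it. COL1A1 rose by 0.73 ± 0.21 (adjusted p = 0.0149; 0.32 with a pseudocount of 5). COL1A1 was not called when the second library of 0 h or of 72 h was left out (adjusted p = 0.114 and 0.104). The part of these markers in the MT4 values was not tested.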

How the data were processed

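The authors deposited 1 table of TPM per gene symbol, for which the submitters' processing notes name RSEM, FastQC, Trimmomatic, STAR, Picard, SAMtools and the build hg19, without versions. Gene models and strandedness were not stated. Because TPM does not hold the number of reads, depth is unknown and no counting error is given. A median-ratio factor per library was taken over 14349 genes above 0 in all libraries. The 11894 genes reaching a TPM of 1 in 2 libraries were fitted as log2(scaled TPM + 1), which understates the change of low genes, with limma 3.58.1 in R 4.3.3. The fit used all 8 libraries with 4 residual and 5.48 prior degrees of freedom, a mean-variance trend, two-sided tests and Benjamini-Hochberg adjustment over all genes kept (threshold 0.05). Scaling was preferred because the fit to values as deposited gave infinite prior degrees of freedom. The fit was also run on simulated data in which few genes were changed, at 72 h only. That run does not test the scaling where many genes change, as was the case here at 72 h. The members and lists were chosen with earlier results of these data known. Named were all 10 members, up to 4 genes a list with the smallest p at 72 h, all expressed genes of the neighbour list, which leaves out 1 gene not reported here, and the 5 genes with the highest r to MT4 and to MT2A. Alternatives were no scaling, quantile or sum scaling, a pseudocount of 0.1 or 5, dropping the filter or raising it to a TPM of 5, no trend, robust moderation, the compared groups alone, the replicate block and leaving out each library. The comparisons between 48 h and 24 h and between 72 h and 48 h, and the alternatives for the genes of the lists, were added after seeing the data. Sequences and coordinates are RefSeq (GRCh38.p14) and GENCODE 29, not the authors' build.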

Additional observations from a re-analysis of the deposited data

Results flagged for a closer look

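The following changes against 0 h differed between 2 siRNA times by limma's test of the difference. Between 72 h and 24 h, MT4 (1.29), MT3 (0.63), MT2A (0.27) and SLC30A1 (0.23) were higher and MT1E (-0.50) was lower on the log2 scale. Between 48 h and 24 h, MT3 was higher by 0.94. Between 72 h and 48 h, MT1E (-0.39) and MT3 (-0.31) were lower. The calls of MT2A, of SLC30A1 and of both genes between 72 h and 48 h did not hold under all alternatives, as given with each gene.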

How the results depend on the processing

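With 2 libraries a group, the number of genes called other than MT4 against 0 h was 0 at 24 h, 2 at 48 h and 4 at 72 h, and 5 with MT4 between 72 h and 24 h. Leaving out a library gave 0 to 1 (1 without the first 72 h library), 1 to 2 (1 without the second 48 h library), 3 to 4, and 3 to 6 (3 without the second 24 h library). On TPM as deposited the last count was 3. The other alternatives kept each count within 1.5 times. The replicate numbers did not pair the libraries (correlations of deviations between -0.086 and 0.107), and a replicate block gave 0, 2, 5 and 6. Changes that turned sign had not passed the test, except KRT5. On TPM as deposited these were MT2A at 24 h against 0 h (-0.064, and -0.016 with libraries brought to the same sum), SLC30A1 at 72 h against 0 h (-0.071) and against 48 h (-0.16), MT2A at 72 h against 48 h (-0.11), MT1X at 48 h against 24 h (0.042), ATOX1 (-0.080) and KRT5 (-0.026). Without 1 library, the change at 24 h against 0 h ranged from -0.055 to 0.11 for MT2A, from -0.17 to 0.16 for MT1X and from -0.013 to 0.44 for MTF1. That of MT1X at 48 h against 0 h ranged from -0.23 to 0.10, that of MTF1 at 48 h against 24 h from -0.19 to 0.27, and those at 72 h against 48 h from -0.014 to 0.17 for MT2A and from -0.025 to 0.085 for SLC30A1. The cause was not tested. With a minimum TPM of 5 in 2 libraries MTF1 was not fitted. A lone library left in a group was assumed to vary like the other groups.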
